A study of Mus musculus with 49 samples.

Results

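The Ifi200 family is a cluster of neighbouring genes on mouse chromosome 1. It was followed here through 9 members, Ifi203, Ifi204, Ifi206, Ifi207, Ifi209, Ifi211, Ifi213, Mndal and Aim2. They were taken by symbol from the 45252 genes of the count table, and all 9 were found. RNAseq of the neocortex had been done in 49 mice on a mixed C57BL/6J × C3H/HeJ background. The 17 ctrl PBS mice were monogenic, carried only the tetO-hTDP43∆NLS allele and received PBS. The 10 TDP-PBS mice were bigenic rNLS8 mice, with one NEFH-tTA and one tetO-hTDP43∆NLS allele, and also received PBS. The 10 TDP10+12 and the 12 TDP15 mice were rNLS8 mice given peptides 10 and 12 together or peptide 15, at a total of 40 µg per vaccination. All groups were treated 5 times from 8 weeks of age and once more after doxycycline was withdrawn at 25.5 weeks. Tissue was taken at 28.5 weeks, 3 weeks after induction. NEFH-tTA drives the transgene in neurons. Because ctrl PBS mice had no NEFH-tTA allele, effects of that allele, of the chromosome around it and of hTDP-43∆NLS itself cannot be told apart in any comparison with ctrl PBS. The 2 parent strains can also leave different alleles at any locus in different littermates, and no genotype of the cluster was measured.

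Proteins of this family, also called PYHIN or HIN-200 proteins, pair a DNA-binding HIN domain with, in most members, a pyrin domain that binds partner proteins. Type I interferon signalling switches on many of the genes by way of interferon-stimulated response elements in their promoters. AIM2 binds double-stranded DNA in the cytosol and assembles an inflammasome with the adaptor ASC, the product of Pycard. IFI204 is a DNA sensor related to human IFI16. IFI202, encoded by Ifi202b, lacks the pyrin domain and opposes AIM2. The number and expression of the genes in the cluster are known to differ between inbred mouse strains. In the brain these genes are expressed mainly by microglia and infiltrating myeloid cells.

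By the RefSeq annotation of GRCm38.p6, the members spanned chr1:173349547-173942866. From the centromeric end, Aim2 lay at chr1:173349547-173466040 on the plus strand and Ifi206 at chr1:173468485-173491318 on the minus strand. Ifi213 followed at chr1:173566280-173599348 (minus), Ifi209 at chr1:173630859-173647928 (plus) and Ifi207 at chr1:173723424-173741831 (minus). Ifi204 lay at chr1:173747293-173767069, Mndal at chr1:173857215-173880382, Ifi211 at chr1:173896339-173913087 and Ifi203 at chr1:173920400-173942866, all on the minus strand. In GENCODE vM21 the gene model of Mndal reached from 173849126 to 173942491 and so covered Ifi211 and much of Ifi203 on the same strand. Ifi203-ps, Ifi202b, Ifi205, Ifi208 and Ifi214 are further genes of the cluster in the table.

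Promoter windows from RefSeq, running from 250 bases before to 50 after an annotated start, were given for 8 of the 9 members. They were searched on both strands for GAAANNGAAA, a core of the interferon-stimulated response element, and for TTCNNNGAA, a core of the gamma-activated site. The first was found in a window of 6 of the 8 members, against 3.99% of 27025 genes with a window. The second was found in none of the members' windows, against 9.55% of genes. The stretches below run from 100 bases before the start site and hold 120 bases each, 5′ to 3′ on the gene's strand, with the GAAANNGAAA match in capitals. They are shown so that the members with a match can be set beside Aim2 and Ifi209, whose windows held none. Members with and without a match were found among both the larger and the smaller differences given further on.
Ifi206, chr1:173491299-173491418, minus strand: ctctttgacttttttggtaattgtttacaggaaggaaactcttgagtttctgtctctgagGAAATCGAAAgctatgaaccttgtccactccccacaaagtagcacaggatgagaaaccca
Ifi213, chr1:173599253-173599372, minus strand: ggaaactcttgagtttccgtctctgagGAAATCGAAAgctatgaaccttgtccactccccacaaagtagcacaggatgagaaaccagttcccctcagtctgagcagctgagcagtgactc
Ifi207, chr1:173741790-173741909, minus strand: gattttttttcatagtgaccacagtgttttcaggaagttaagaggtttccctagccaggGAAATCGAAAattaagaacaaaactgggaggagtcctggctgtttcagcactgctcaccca
Ifi211, chr1:173913027-173913146, minus strand: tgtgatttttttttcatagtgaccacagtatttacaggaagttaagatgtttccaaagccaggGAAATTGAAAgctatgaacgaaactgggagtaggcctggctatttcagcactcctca
Mndal, chr1:173880168-173880287, minus strand: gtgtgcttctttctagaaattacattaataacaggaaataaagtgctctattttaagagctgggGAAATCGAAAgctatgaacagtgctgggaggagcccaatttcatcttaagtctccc
Ifi203, chr1:173942473-173942592, minus strand: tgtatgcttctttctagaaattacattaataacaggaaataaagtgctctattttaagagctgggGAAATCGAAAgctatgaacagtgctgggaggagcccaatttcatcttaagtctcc
Ifi209, chr1:173630759-173630878, plus strand: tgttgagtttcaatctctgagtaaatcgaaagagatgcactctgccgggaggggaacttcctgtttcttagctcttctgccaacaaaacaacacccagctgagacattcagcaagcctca
Aim2, chr1:173420504-173420623, plus strand: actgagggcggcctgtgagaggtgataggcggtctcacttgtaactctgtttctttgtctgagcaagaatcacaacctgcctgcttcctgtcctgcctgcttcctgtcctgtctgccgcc
The match began 40 bases before the start of Ifi206, 73 before that of Ifi213, 41 before that of Ifi207, 37 before that of Ifi211, 36 before that of Mndal and 35 before that of Ifi203. Ifi203 has another annotated start whose window held none, and Mndal another whose window held a match on the opposite strand. The windows of Ifi206 and Ifi213 shared an identical run of 135 bases, and those of Mndal and Ifi203 a run of 139 bases. A match is a description of the letters and does not show that a factor bound there.

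The copies are also alike in their transcripts. Of all 100-base stretches in the GENCODE transcripts of Ifi211, 56.9% also occurred in transcripts of another gene, mainly Ifi205 and Ifi204. The share was 16.9% for Ifi209 (all with Ifi214), 13.1% for Ifi206, 10.7% for Ifi204, 6.38% for Mndal, 3.3% for Ifi213, 2.84% for Ifi203, 0.79% for Ifi207 and 0 for Aim2. How reads that match several copies were counted is not given in the sources used here. Counts of Ifi211 in particular may therefore include reads of its neighbours, and reads of the C3H/HeJ copies, which can differ in sequence, were placed on the C57BL/6J genome.

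Total counts lay between 17775738 and 21033608 per mouse, so that 3 counts, taken as the floor of detection, corresponded to 0.139 to 0.165 CPM, the counts relative to the library's total after edgeR's TMM scaling. Floors cover counting error only. Markers of cortical tissue were present in every mouse, with summed neuronal markers of at least 4435 CPM. Within groups the least different libraries still differed by a chi-squared of 7.24 per degree of freedom, so none was a copy of another. Each library came from a separate mouse.

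In the comparison of TDP-PBS with ctrl PBS, which asks how induction of the transgene system changed the cortex, 8 of the 9 members rose (edgeR quasi-likelihood test, adjusted p-value under 0.05), against 21.9% of the 18220 genes tested that rose. All 9 members passed the filter on low counts. Ifi204, Ifi206, Ifi209, Ifi211 and Ifi213, with medians of at most 0.3 CPM in ctrl PBS mice, passed it only through rNLS8 mice. The counts of members that rose therefore rest in part on a filter met in the groups where these genes were high. Members with a large and a small difference stood apart. Ifi204, Ifi211, Ifi209, Ifi206, Ifi213 and Ifi207 had log2 fold changes of 2.51 to 3.72, and Ifi203, Mndal and Aim2 of 0.43 to 0.94. In TDP10+12 against ctrl PBS, 7 of 9 members rose (20.8% of all genes), and in TDP15 against ctrl PBS 8 of 9 (23.6% of all genes). These comparisons share the ctrl PBS mice, so they are not independent of each other. In bulk tissue, fewer or more cells of a type and less or more RNA per cell cannot be told apart.

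**Figure D1:**
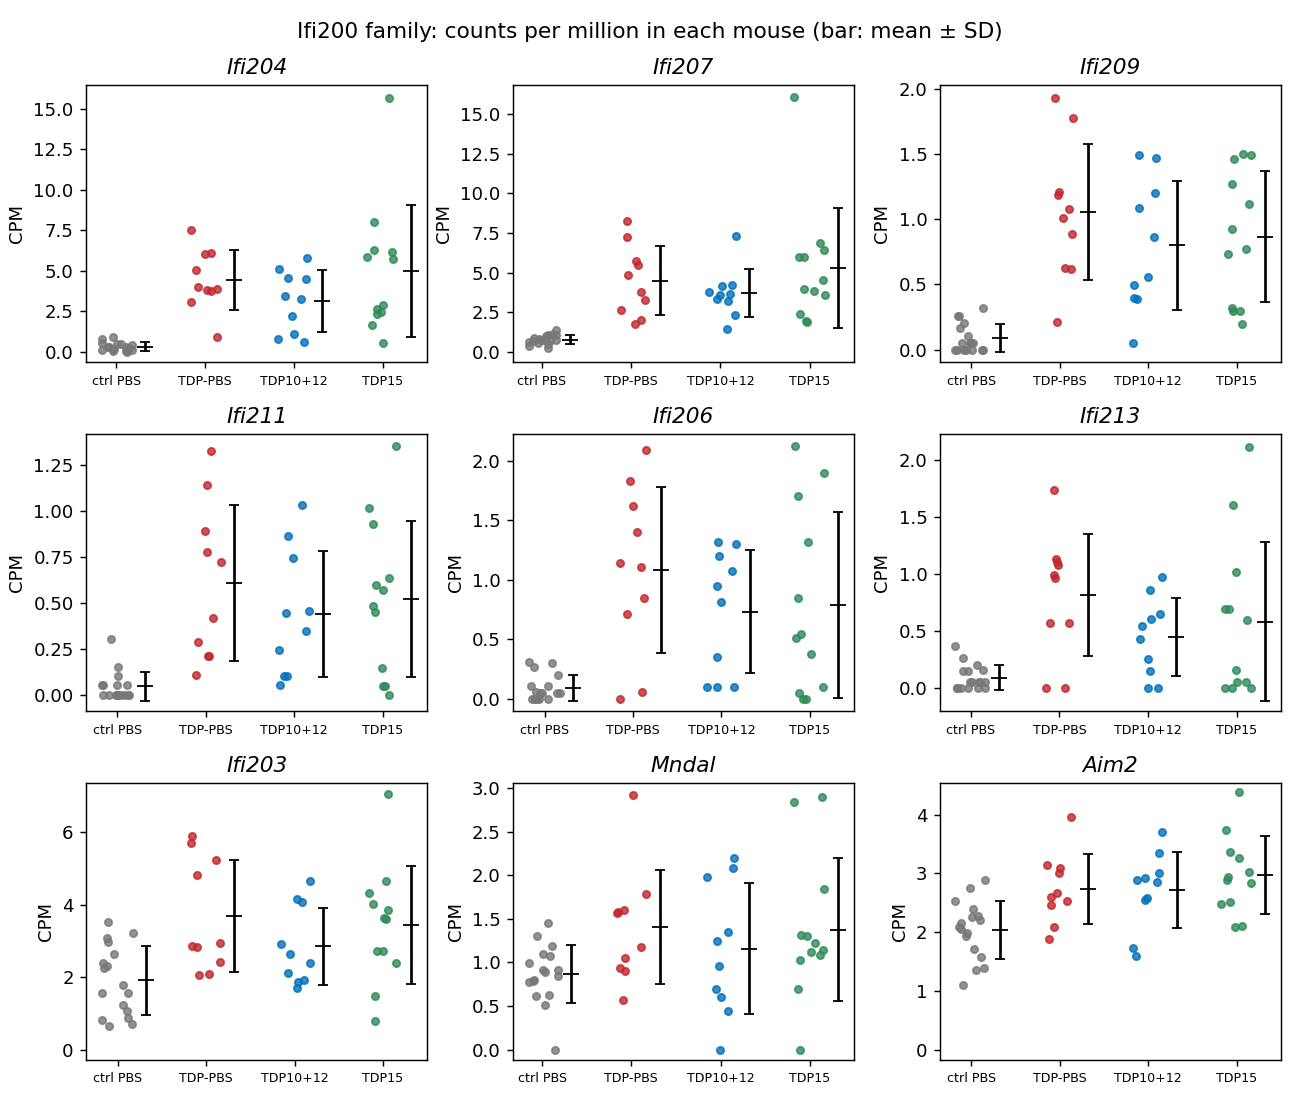
Level of each member in CPM (y axis) in each of 49 mice, by group (x axis), with the mean and SD to the right of the points. Ifi207 in every rNLS8 mouse lay above all 17 ctrl PBS mice, Ifi206 and Ifi213 of rNLS8 mice reached from 0 to 2.12 CPM, and Mndal was at 0 in 1 mouse of each of 3 groups.

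Ifi204, the DNA sensor, was low in ctrl PBS mice, with a lowest value of 0, a median of 0.3 and a highest value of 0.912 CPM. In TDP-PBS mice it ran from 0.91 over a median of 3.97 to 7.54 CPM, in TDP10+12 mice from 0.593 over 3.38 to 5.82 CPM, and in TDP15 mice from 0.547 over 4.3 to 15.7 CPM. All but 1 TDP-PBS mouse, all but 2 TDP10+12 mice and all but 1 TDP15 mouse lay above every ctrl PBS mouse. Set against the ctrl PBS mice, it rose by 3.72 ± 0.40 on the log2 scale (SE) in TDP-PBS (edgeR adjusted p = 7.08e-11), 3.22 ± 0.41 in TDP10+12 (adjusted p = 5.88e-09) and 3.89 ± 0.39 in TDP15 (adjusted p = 5.15e-12). The value of 15.7 CPM came from TDP15 mouse 126, which also had the highest interferon score of all 49 mice.

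Ifi207, a nuclear HIN-200 protein, was the only member whose levels in all 32 rNLS8 mice lay above those of all ctrl PBS mice. What share of all genes tested separated in this way was not counted. Ifi207 ran from 0.25 over a median of 0.77 to 1.4 CPM in ctrl PBS mice. In TDP-PBS mice it ran from 1.77 over 4.33 to 8.27 CPM. In TDP10+12 mice it ran from 1.46 over 3.62 to 7.34 CPM, and in TDP15 mice from 1.87 over 4.26 to 16.0 CPM. The groups of rNLS8 mice overlapped over most of this range. Set against the ctrl PBS mice, it rose by 2.51 ± 0.28 on the log2 scale in TDP-PBS (edgeR adjusted p = 9.17e-11), 2.23 ± 0.28 in TDP10+12 (adjusted p = 3.36e-09) and 2.74 ± 0.26 in TDP15 (adjusted p = 1.63e-12).

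Ifi209 and Ifi211 were near the floor in ctrl PBS mice. Ifi209 had 0 counts in 7 of the 17 and a median of 0.052 CPM, and Ifi211 had 0 counts in 10 of the 17, with 15 counts over all of them. In rNLS8 mice Ifi209 had medians of 1.05 CPM in TDP-PBS (0.214 to 1.93), 0.711 in TDP10+12 (0.0502 to 1.49) and 0.851 in TDP15 (0.196 to 1.5). Ifi211 had medians of 0.57 CPM in TDP-PBS (0.107 to 1.32), 0.397 in TDP10+12 (0.0499 to 1.03) and 0.523 in TDP15 (0 to 1.35). For both genes some rNLS8 mice remained within the range of the ctrl PBS mice, the highest of which had 0.316 CPM of Ifi209 and 0.304 CPM of Ifi211. Both rose in each comparison with ctrl PBS. The log2 fold change of Ifi209 was 3.49 ± 0.44 in TDP-PBS, 3.09 ± 0.45 in TDP10+12 and 3.21 ± 0.44 in TDP15, with edgeR adjusted p-values of 4.51e-09, 1.64e-07 and 2.03e-08. For Ifi211 it was 3.58 ± 0.57, 3.10 ± 0.60 and 3.35 ± 0.57, with adjusted p-values of 9.78e-07, 3.00e-05 and 2.29e-06. With so few counts in ctrl PBS mice the fitted folds of Ifi206, Ifi209, Ifi211 and Ifi213 depend on the small prior count of the fit.

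Ifi206 and Ifi213, whose promoter stretches are printed above with their shared run, rose on average but varied widely between rNLS8 mice. Ifi206 had a median of 0.0506 and a highest value of 0.312 CPM in ctrl PBS mice. It ran from 0 over 1.12 to 2.09 CPM in TDP-PBS, from 0.0988 over 0.878 to 1.32 CPM in TDP10+12 and from 0 over 0.528 to 2.12 CPM in TDP15. Ifi213 had a median of 0.0525 and a highest value of 0.368 CPM in ctrl PBS mice. It ran from 0 over 0.976 to 1.74 CPM in TDP-PBS, from 0 over 0.489 to 0.979 CPM in TDP10+12 and from 0 over 0.38 to 2.12 CPM in TDP15. For both genes the highest rNLS8 mice exceeded the whole ctrl PBS range while the lowest lay at or near 0, in each of the 3 groups. The log2 fold change of Ifi206 was 3.48 ± 0.60 in TDP-PBS (edgeR adjusted p = 3.56e-06), 2.92 ± 0.62 in TDP10+12 (adjusted p = 0.000125) and 3.03 ± 0.60 in TDP15 (adjusted p = 3.06e-05). That of Ifi213 was 3.08 ± 0.63 (adjusted p = 6.77e-05), 2.22 ± 0.68 (adjusted p = 0.00666) and 2.61 ± 0.63 (adjusted p = 0.000546). By limma-voom Ifi213 did not pass in TDP10+12 (log2 fold change 1.86, adjusted p = 0.0814) or TDP15 (1.56, adjusted p = 0.136).

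Ifi203 and Mndal, which encode nuclear proteins, were expressed in ctrl PBS mice already. Ifi203 ran from 0.642 over a median of 1.77 to 3.52 CPM in ctrl PBS, from 2.06 over 2.91 to 5.89 CPM in TDP-PBS, from 1.72 over 2.52 to 4.65 CPM in TDP10+12 and from 0.796 over 3.62 to 7.06 CPM in TDP15. The groups overlapped. Ifi203 rose in TDP-PBS (log2 fold change 0.94 ± 0.25, edgeR adjusted p = 0.00193) and TDP15 (0.84 ± 0.24, adjusted p = 0.00338), and did not pass in TDP10+12 (0.57 ± 0.26, adjusted p = 0.0722). Leaving out ctrl PBS mouse 71 or 137, or TDP10+12 mouse 200, brought the last below the threshold (adjusted p = 0.0437, 0.0406 and 0.0486).

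Mndal had medians of 0.892 CPM in ctrl PBS, 1.37 in TDP-PBS, 1.11 in TDP10+12 and 1.19 in TDP15, and highest values of 1.46, 2.92, 2.2 and 2.89 CPM. It passed the test in none of the 3 comparisons, with log2 fold changes of 0.69 ± 0.34 (edgeR adjusted p = 0.1), 0.41 ± 0.35 (adjusted p = 0.376) and 0.65 ± 0.33 (adjusted p = 0.0984). Without TDP15 mouse 284, which had no Mndal count, the difference of TDP15 passed (log2 fold change 0.78, adjusted p = 0.0291). In a fit of only TDP-PBS and ctrl PBS mice, that of TDP-PBS passed (0.70, adjusted p = 0.0276).

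Aim2, the inflammasome receptor, had the smallest spread between mice of the members. It ran from 1.1 over a median of 2.08 to 2.89 CPM in ctrl PBS, from 1.87 over 2.63 to 3.96 CPM in TDP-PBS, from 1.59 over 2.87 to 3.7 CPM in TDP10+12 and from 2.09 over 2.91 to 4.38 CPM in TDP15. Many rNLS8 mice lay within the range of the ctrl PBS mice. Aim2 rose by a log2 fold change of 0.43 ± 0.14 in TDP-PBS (edgeR adjusted p = 0.00844), 0.41 ± 0.14 in TDP10+12 (adjusted p = 0.0118) and 0.54 ± 0.13 in TDP15 (adjusted p = 0.000417), which is 1.34-, 1.33- and 1.45-fold.

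**Figure D2:**
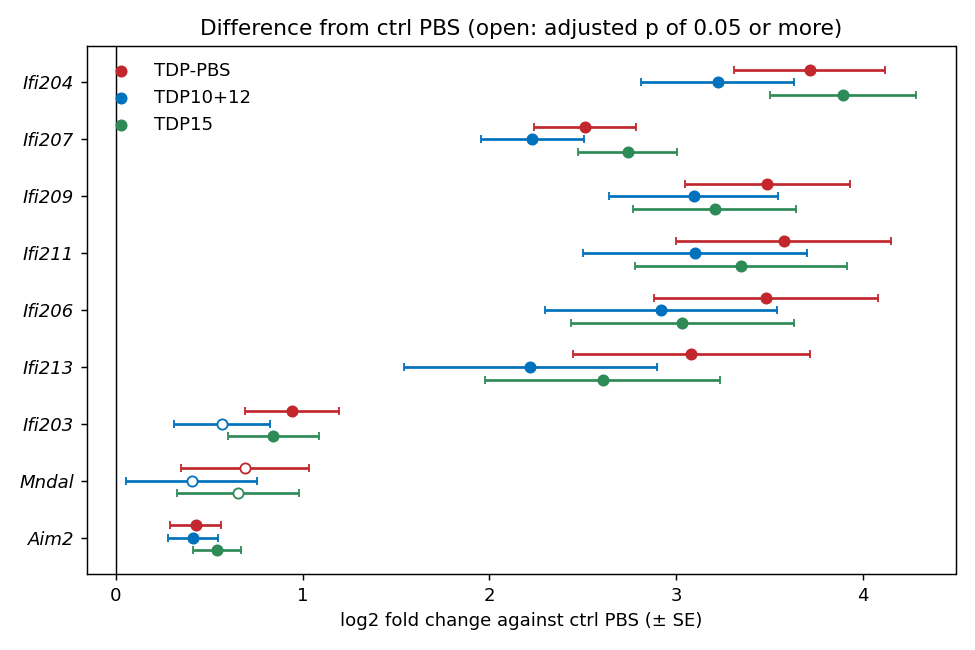
Log2 fold change of each member against ctrl PBS (x axis, ± SE) in TDP-PBS, TDP10+12 and TDP15. The upper 6 genes lie between 2.22 and 3.89 and the lower 3 between 0.41 and 0.94, and open circles mark Ifi203 in TDP10+12 and Mndal in all 3 groups, which did not pass the test.

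Per length, the order of the members differed between ctrl PBS and rNLS8 mice. In ctrl PBS mice Aim2 was highest at 0.582 ± 0.14 CPM per kb of exon (SD, n = 17), followed by Ifi203 at 0.286 ± 0.142, Mndal at 0.24 ± 0.0921 and Ifi207 at 0.229 ± 0.0855. The last 3 of these differed by less than their SD. Ifi204 followed at 0.0932 ± 0.0728, and the other 4 members lay between 0.0133 and 0.0296. In TDP-PBS mice Ifi207 led at 1.32 ± 0.643 CPM per kb (SD, n = 10), with Ifi204 at 1.24 ± 0.521, Aim2 at 0.782 ± 0.17 and Ifi203 at 0.55 ± 0.229. Ifi207 and Ifi204 differed by less than their SD. The same 2 genes led in TDP10+12 and TDP15, and Ifi213 was lowest in all 4 groups.

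Comparing the rNLS8 groups asks whether vaccination changed the family. By the edgeR test 0 of the 9 members passed in any of these comparisons. The vaccinated groups received peptide conjugates of ovalbumin with CpG and Alhydrogel, and the PBS groups PBS in their place. Whether the PBS groups received adjuvant is not given in the sources used here, so peptide, carrier and adjuvant cannot be told apart. TDP10+12 differed from TDP-PBS by log2 fold changes of -0.86 ± 0.60 (Ifi213) to -0.01 ± 0.15 (Aim2), with adjusted p-values of 0.96 or more, and 0% of all genes passed. TDP15 differed from TDP-PBS by -0.48 ± 0.56 (Ifi213) to 0.23 ± 0.27 (Ifi207), with an adjusted p of 0.9996 for each member, and 0% of all genes passed. TDP10+12 lay below TDP15 by 0.67 ± 0.37 for Ifi204 (log2 fold change -0.67) and 0.51 ± 0.27 for Ifi207 (log2 fold change -0.51), with adjusted p-values of 0.784 and 0.767, and again 0% of all genes passed. At an unadjusted p under 0.05, 0 members differed in each of these comparisons, against 953, 552 and 1244 genes, and limma-voom and DESeq2 also called 0 members. Standard errors were 0.14 to 0.60 on the log2 scale. Differences larger than their standard error, such as -0.86 ± 0.60 for Ifi213 and -0.67 ± 0.37 for Ifi204, did not pass either. Moderate differences between these groups could thus go undetected, and equality of the groups is not shown. The difference of TDP-PBS from ctrl PBS did not pass a test for a difference between the sexes for any of the 5 members that passed the filter in the 27 PBS-treated mice (0% of 17363 genes passed). For Ifi204 the log2 fold change was 3.80 in females and 3.64 in males.

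Within groups the members differed between mice far more than most genes. The SD of log2 CPM within groups was 1.29 for Ifi206 and Ifi213, 1.04 for Mndal, 1.02 for Ifi204, 0.95 for Ifi211, 0.86 for Ifi209, 0.69 for Ifi203, 0.67 for Ifi207 and 0.34 for Aim2, against a median of 0.21 over all genes tested. Lower counts add to this spread. The share of a member's variance that lay between the 4 groups was 74.1% for Ifi207, 71.8% for Ifi204 and 65.7% for Ifi209. It was 49.9% for Ifi211, 37.8% for Ifi206, 32.03% for Aim2, 27.4% for Ifi213, 26.98% for Ifi203 and 6.56% for Mndal. The median over all genes was 16.4%.

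How far the spread within groups went along with the interferon response was described with an interferon score, the mean log2 CPM of 15 interferon-stimulated genes that hold no member. The score lay between 0.31 and 1.47 in ctrl PBS mice and between 1.79 and 5.04 in rNLS8 mice. It accounted for 61.9% of the variance within groups of Ifi207, 42.3% of Ifi204, 39.9% of Ifi209, 28.4% of Ifi211, 26.97% of Ifi206, 21.8% of Ifi203, 15.0% of Ifi213, 11.1% of Mndal and 4.56% of Aim2, with a median of 1.73% over all genes. Within single groups, Pearson's r with the score was above 0 in 35 of 36 relations (9 members in 4 groups), and 11 of the 36 passed a two-sided permutation test after Benjamini-Hochberg adjustment. By Spearman's rho 1 of the 36 passed. The same counts were not made over all genes tested. Several members also varied together between mice, so the 36 relations are not independent of each other.

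Ifi207 followed the score in each rNLS8 group. In TDP15 r was 0.89 (permutation p = 0.00014, adjusted p = 0.00504) and rho 0.832 (permutation p = 0.00122, adjusted p = 0.0439), and r was 0.767 without the 2 mice farthest from the median score. In TDP-PBS r was 0.794 (permutation p = 0.00309, adjusted p = 0.0358) and rho 0.77 (permutation p = 0.0129, adjusted p = 0.0894), and r was 0.564 without 2 mice. In TDP10+12 r was 0.791 (permutation p = 0.00973, adjusted p = 0.0358) and rho 0.636 (permutation p = 0.0558, adjusted p = 0.167), and r was 0.677 without 2 mice.

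Ifi204 and Ifi209 followed the score in some rNLS8 groups. For Ifi204 in TDP15 r was 0.806 (permutation p = 0.00129, adjusted p = 0.0232) and rho 0.762 (permutation p = 0.0056, adjusted p = 0.0528), and r was 0.772 without 2 mice. In TDP-PBS its r of 0.817 (permutation p = 0.00853, adjusted p = 0.0358) with a rho of 0.636 (permutation p = 0.0538, adjusted p = 0.167) became 0.237 without 2 mice and so rested on them, and in TDP10+12 r was 0.524 and rho 0.455 (permutation p = 0.117 and 0.193, adjusted p = 0.201 and 0.27). For Ifi209 r was 0.805 in TDP10+12 (permutation p = 0.00898, adjusted p = 0.0358) and 0.722 in TDP15 (permutation p = 0.00995, adjusted p = 0.0358), and 0.719 and 0.733 without 2 mice. Its rho there was 0.564 and 0.636 (adjusted permutation p = 0.194 and 0.118). In TDP-PBS its r of 0.743 did not pass (permutation p = 0.0212, adjusted p = 0.0588) and was -0.015 without 2 mice. Aim2 passed in TDP-PBS (r = 0.779, permutation p = 0.0116, adjusted p = 0.0379, rho = 0.539 with an adjusted permutation p of 0.196), and its r was 0.118 without the 2 mice.

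For Ifi206 and Ifi213 the relation did not pass in any rNLS8 group, and the groups differed in how it changed without 2 mice. In TDP-PBS r was 0.392 for Ifi206 and 0.395 for Ifi213 (permutation p = 0.28 and 0.278, adjusted p = 0.36 for both), and -0.55 and -0.719 without 2 mice. In TDP10+12 r was 0.593 and 0.384 (permutation p = 0.0614 and 0.275, adjusted p = 0.138 and 0.36), and 0.356 and 0.526 without them. In TDP15 r was 0.524 and 0.319 (permutation p = 0.082 and 0.307, adjusted p = 0.166 and 0.381), and 0.706 and 0.615 without them. In ctrl PBS mice, where both genes lay near the floor, their r of 0.644 and 0.624 passed (permutation p = 0.00553 and 0.00846, adjusted p = 0.0358 for both) and their rho of 0.541 and 0.655 did not (adjusted permutation p = 0.118 and 0.0528).

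**Figure D3:**
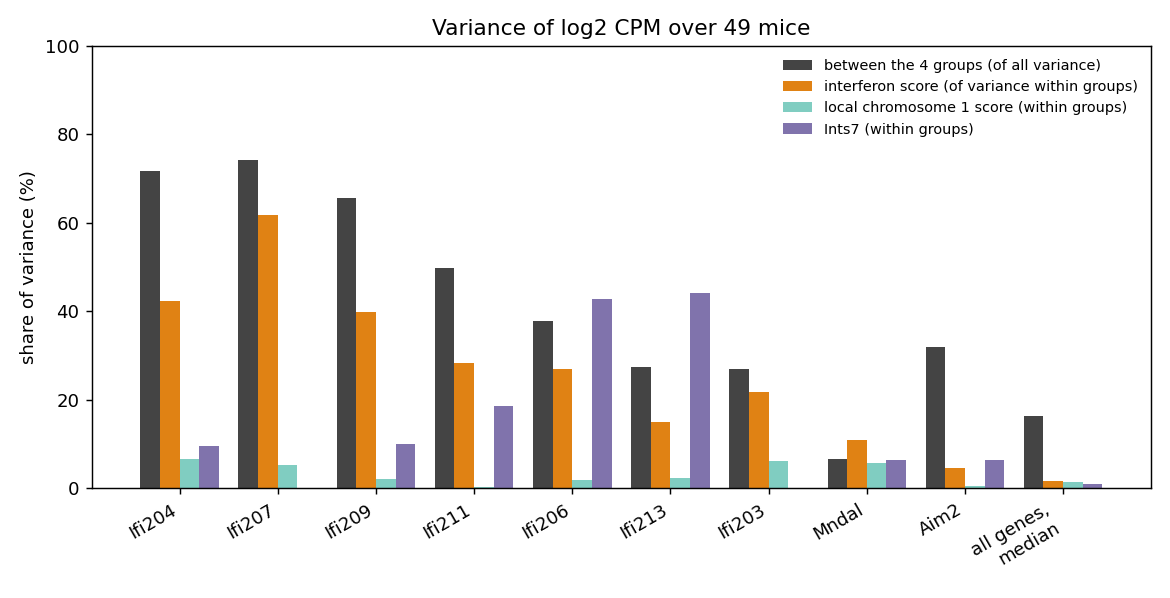
Share of the variance of log2 CPM (y axis, percent) that lay between the 4 groups and, of the variance within groups, the share that went along with the interferon score, with the local chromosome 1 score and with Ints7, for each member and as the median of all 18220 genes tested. The interferon score has the tallest of the within-group bars for Ifi207 (61.9%), and Ints7, chosen for its likeness to 2 members, for Ifi206 (42.8%) and Ifi213 (44.1%).

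To describe differences that could go with the chromosome around the cluster, a local score was made from neighbouring genes on chromosome 1. It was the first principal component of 59 genes within 10 Mb that did not differ between rNLS8 and ctrl PBS mice, out of 158 neighbours. The score carried 24.65% of their variance and rested mainly on Gm5561 (loading 0.90) and Tma7-ps (-0.34), followed by Nme7 (0.12). It accounted for 0.274% to 6.75% of the members' variance within groups, with a median of 1.37% over all genes. Of 36 relations within groups, 0 passed the permutation test by r or by rho. Together with the interferon score it accounted for 38.55% for Ifi206, 24.77% for Ifi213 and 34.93% for Ifi211. The interferon score alone accounted for 26.97%, 15.0% and 28.4%. For the other members the local score added less, and the median for both scores over all genes was 4.48%. A score from genes 2 to 20 Mb away was nearly the same (r = 0.983). As built, the local score on its own passed no test of a relation with a member, and it reads 2 pseudogenes more than a stretch of the chromosome.

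The genes most like each member, by Pearson's r of group-centred log2 CPM over the 49 mice, fell into different sets. This is a description over mice that share group means set to 0. For Ifi207 they were Rsad2 (r = 0.832), Lgals3bp (0.795) and Irf7 (0.786), for Ifi204 H2-Q4 (0.741), B2m (0.71) and Zbp1 (0.676), and for Ifi209 Ifi27l2a (0.732), B2m (0.7) and Oas3 (0.682). These are interferon-stimulated or antigen presentation genes on other chromosomes. Rsad2 and Irf7 are themselves genes of the interferon score, so their likeness repeats part of its relation to Ifi207. For Ifi206 they were Gm39741 (0.749), Fcer1g (0.744) and Gas5 (0.673), and for Ifi213 Fcer1g (0.747), Gm39741 (0.709) and Gas5 (0.7). All 3 lie on chromosome 1, with Fcer1g 2.12 Mb, Gas5 12.3 Mb and Gm39741 17.7 Mb from the outermost member. Whether the likeness goes with this position or with the cells that express these genes was not tested. Fcer1g also had an r of 0.60 with Ifi209, 0.56 with Ifi204, 0.42 with Mndal, 0.41 with Aim2, 0.35 with Ifi207 and 0.18 with Ifi203.

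Ifi211 was most like Fcer1g (0.634), Rnf213 (0.633) and Cyp20a1 (0.607). Ifi203 was most like LOC102641031 (0.716), listed under chromosome 1 at 69234, before the first other gene of the chromosome, so that its place is uncertain, then H2-Q4 (0.644) and Pbxip1 (0.616). Mndal was most like H2-Q1 (0.588), Tln1 (0.534) and H2-Q4 (0.53), and Aim2 like Krt9 (0.651), Gm30085 (0.617) and Gm31251 (0.579). Of the 20 genes most like a member in absolute r, 8 for Ifi213, 7 for Ifi206, 3 for Ifi211 and 1 for Mndal lay within 20 Mb of the cluster, and 0 for the other members. Of all other genes tested, 1.85% lay there. Among the members themselves Ifi206 and Ifi213 were most alike (r = 0.847), then Ifi206 and Ifi211 (0.772), Ifi211 and Ifi213 (0.697), Ifi204 and Ifi207 (0.688) and Ifi203 and Mndal (0.659). Ifi206 and Ifi213 share 2.94% and 1.22% of their 100-base stretches.

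Ints7, a subunit of the Integrator complex 17.6 Mb from the cluster, was then set beside the members. It was chosen after its likeness to Ifi206 and Ifi213 had been seen, so its values are a description and no test of the chromosome. Its r with Ifi206 was 0.936 in TDP-PBS, 0.452 in TDP10+12, 0.79 in TDP15 and 0.104 in ctrl PBS. With Ifi213 it was 0.87, 0.681, 0.797 and 0.0369, and with Ifi207 0.187, -0.0463, -0.247 and 0.164. For Ifi206 and Ifi213 Spearman's rho was lower than r in each rNLS8 group. In TDP-PBS, TDP10+12 and TDP15 it was 0.77, 0.236 and 0.62 for Ifi206 and 0.462, 0.365 and 0.711 for Ifi213. Ints7 accounted for 42.8% of the variance of Ifi206 within groups and 44.1% of that of Ifi213, and together with the interferon score for 69.8% and 59.2%. For Ifi207 its share was 0.0157%, and for Ifi203 0.0222%, with a median of 1.02% over all genes. Aim2, at 6.31% over all groups, had an r of 0.809 with Ints7 in TDP15 and of -0.0055 in TDP10+12.

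**Figure D4:**
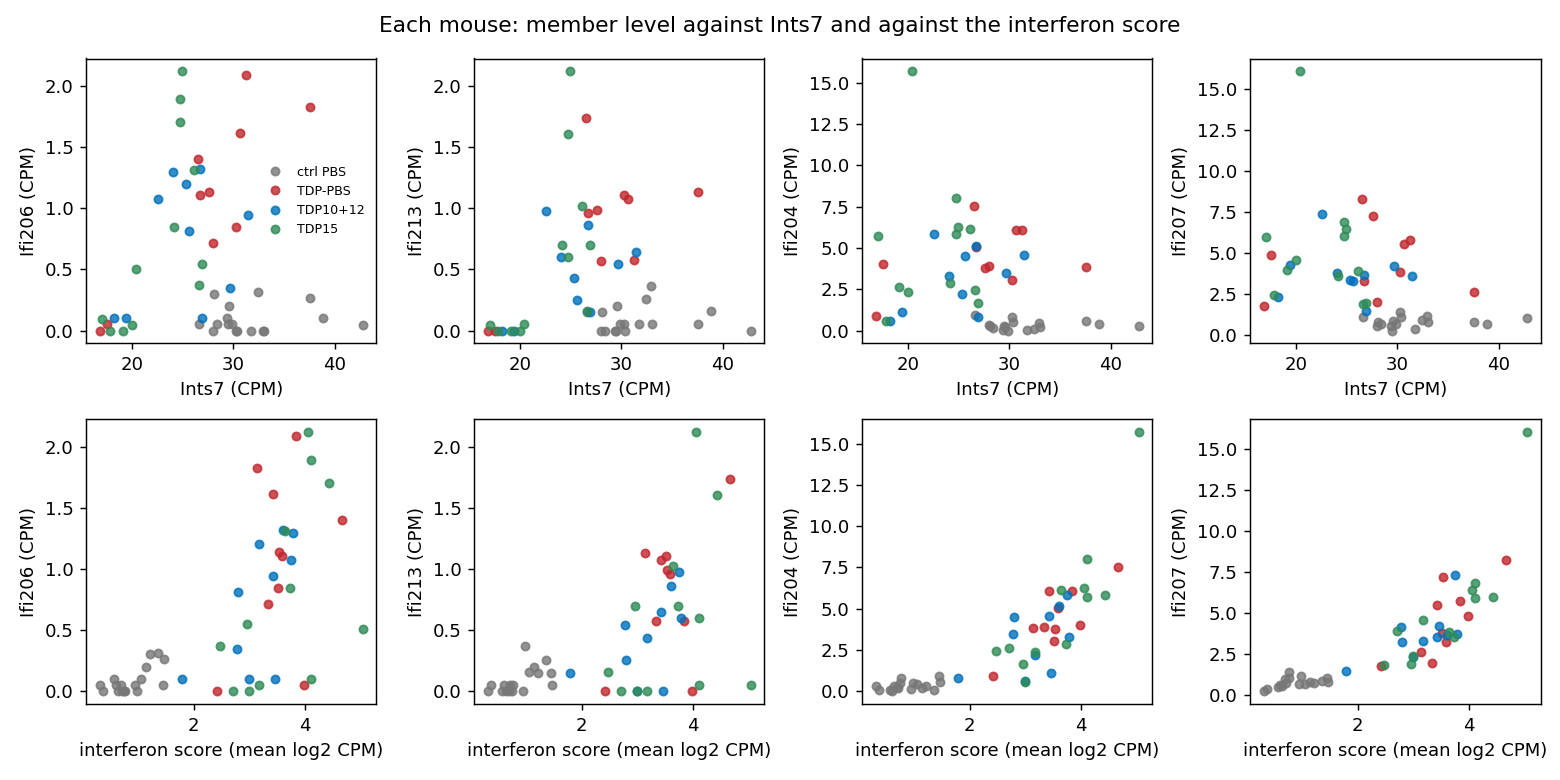
Level of Ifi206, Ifi213, Ifi204 and Ifi207 in CPM (y axes) against Ints7 in CPM (upper row, x axis) and against the interferon score in mean log2 CPM (lower row, x axis), 1 point per mouse, coloured by group. Ifi213 is at 0 to 0.0508 CPM in the 9 rNLS8 mice with the least Ints7, and Ifi207 climbs with the score up to 16.0 CPM in TDP15 mouse 126.

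Single mice differed in which members they lacked. Ifi213 had 0 counts in 7 of the 32 rNLS8 mice. In TDP-PBS mice 124 and 251 Ints7 stood at 17.5 and 16.8 CPM, in TDP10+12 mice 266 and 337 at 19.4 and 18.3 CPM, and in TDP15 mice 54, 254 and 284 at 19.1, 20.0 and 17.9 CPM. Gas5, a snoRNA host gene, stood at 4.65 and 4.23, at 5.44 and 5.09, and at 5.03, 30.3 and 5.62 CPM in the same order, so that mouse 254 was not low in it. The 17 ctrl PBS mice had 26.6 to 42.8 CPM of Ints7 and 12.4 to 27.7 CPM of Gas5. The highest Gas5 value among them was that of mouse 343, and the next was 17.5 CPM. TDP10+12 mouse 277 had 4.71 CPM of Gas5 with 25.3 CPM of Ints7, 9 counts of Ifi213 and 25 of Ifi206, so the 2 distant genes did not mark the same mice throughout. Ifi206 had 0 to 2 counts in all 7. Ifi211 was low in all 7 as well, with 4, 2, 1, 2, 0, 1 and 1 counts in the order above. Ifi204 varied, with 77, 17, 22, 12, 54, 48 and 11 counts, and Ifi209 had 12, 4, 10, 8, 15, 4 and 6 counts. Ifi207 was present in each, with 93, 33, 85, 47, 81, 93 and 48 counts. In TDP15 mouse 126, with 1 count of Ifi213 and 10 of Ifi206, there were 20 of Ifi211, 309 of Ifi204 and 316 of Ifi207. In ctrl PBS mice Ifi213 had 0 counts in 6 of 17. A count of 0 there allows a level up to the floor, so such differences between mice could not be seen at this depth.

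Mndal had 0 counts in exactly 3 mice, ctrl PBS mouse 84, TDP10+12 mouse 337 and TDP15 mouse 284. The same mice had 13, 39 and 16 counts of Ifi203, the next gene but one along the chromosome, 0, 2 and 0 counts of Ifi206 and 0 counts of Ifi213. Mndal was present in the other 46 mice, among them 124, 251, 266, 54 and 254, in which Ifi213 was at 0. Both rNLS8 mice without Mndal were thus also without Ifi213, while 5 further rNLS8 mice had Mndal and no Ifi213.

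Of the 5 other genes of the cluster in the table, Ifi208 passed the filter. It rose in TDP-PBS (log2 fold change 1.36 ± 0.37, edgeR adjusted p = 0.00206), with levels of 0.477 ± 0.3 CPM (SD, n = 10) against 0.182 ± 0.141 in ctrl PBS (n = 17). Ifi202b had counts in few mice. There were 6 in ctrl PBS mouse 343. In TDP-PBS there were 28 in mouse 124, 6 in mouse 251, 4 in mouse 270 and 1 in mouse 42, and in TDP10+12 35 in mouse 266 and 5 in mouse 301. In TDP15 there were 66 in mouse 126, 51 in mouse 261, 20 in mouse 54, 11 in mouse 254 and 6 in mouse 269. All others had 0. Ifi202b was thus found in 5 of the 7 rNLS8 mice without Ifi213 and was absent from mice 337 and 284, which also lacked Mndal. Mice 42, 270, 301, 126, 261 and 269 had counts of both Ifi202b and Ifi213, with 1 count of Ifi213 each in mice 126 and 261. Ifi205 had 15 counts over all ctrl PBS mice and 51, 45 and 71 in TDP-PBS, TDP10+12 and TDP15, Ifi214 had 3 against 54, 29 and 43, and Ifi203-ps had 20 against 23, 19 and 20.

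**Figure D5:**
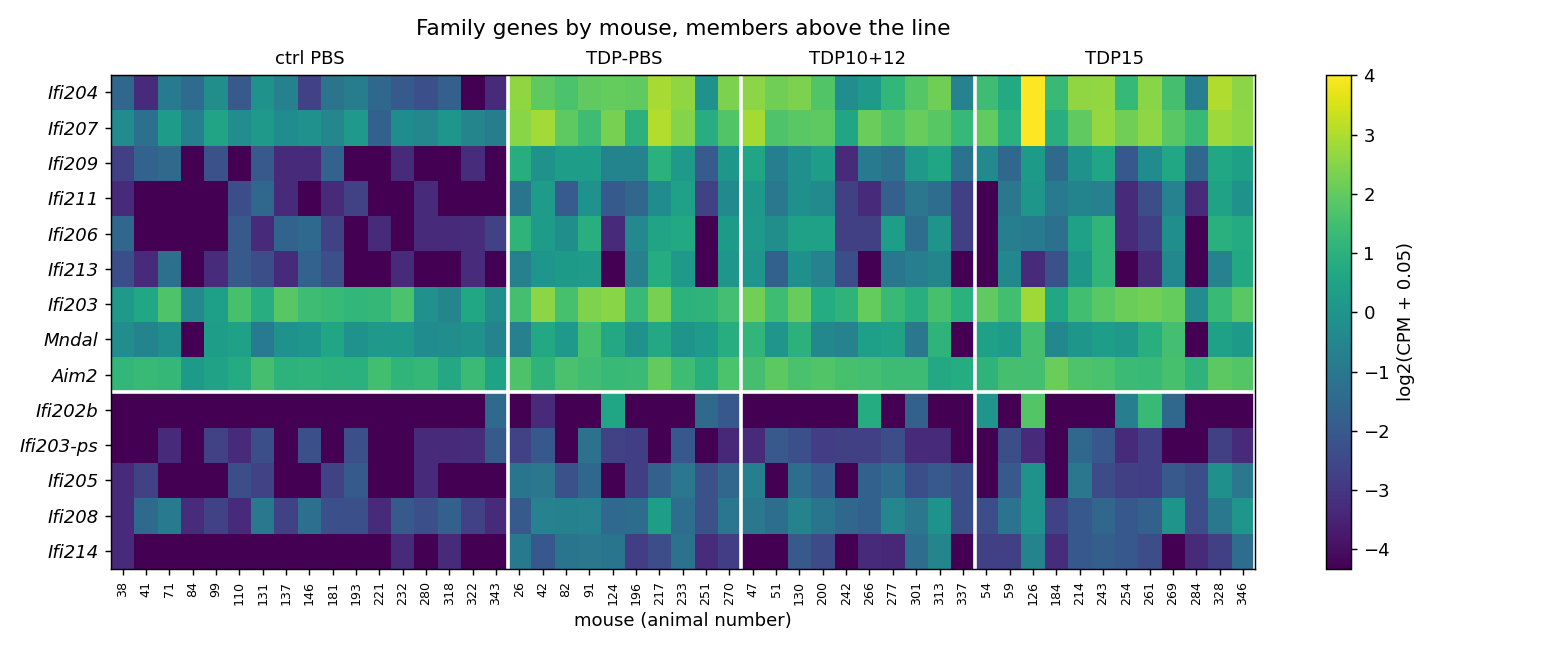
Level of the 9 members (above the line) and 5 other genes of the cluster (below it) in log2(CPM + 0.05), 1 column per mouse, ordered by group and animal number. The dark cells of Mndal are mice 84, 337 and 284, and Ifi202b is bright in TDP15 mice 126 and 261 and in TDP10+12 mouse 266.

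Genes that act with the members were counted beside all genes tested, of which 21.9% rose and 21.6% fell in TDP-PBS, 20.8% and 20% in TDP10+12, and 23.6% and 23.2% in TDP15. These shares also apply to the cell type markers further on. Of 9 inflammasome genes tested, 3 rose and 1 fell in TDP-PBS, 4 rose and 0 fell in TDP10+12, and 4 rose and 1 fell in TDP15. Pycard, the adaptor that AIM2 recruits, rose by a log2 fold change of 1.08 ± 0.24 in TDP-PBS (edgeR adjusted p = 0.000161), from 0.66 ± 0.3 CPM (SD, n = 17) to 1.41 ± 0.608 CPM (n = 10), and Naip5 by 0.84 ± 0.22 (adjusted p = 0.00133). Il18, a cytokine matured by caspase-1, fell by 0.21 on the log2 scale (adjusted p = 0.0254). The 4 inflammasome genes called in TDP-PBS are a share near that of all genes, 43.5% of which were called in either direction. Of 13 nucleic acid sensing genes, 8 rose and 1 fell in TDP-PBS, 6 and 2 in TDP10+12, and 7 and 1 in TDP15. Zbp1, a sensor of Z-form nucleic acids, rose by 2.66 ± 0.33 in TDP-PBS (adjusted p = 1.74e-09) and Ddx58, encoding RIG-I, by 1.79 ± 0.15 (adjusted p = 5.31e-14), while the kinase gene Tbk1 fell by 0.20 (adjusted p = 0.000401). Of 12 genes of interferon signalling, 9 rose and 0 fell in TDP-PBS, led by Irf7 (3.01 ± 0.26, adjusted p = 7.33e-14) and Irf9 (1.86 ± 0.15, adjusted p = 1.87e-14). In TDP10+12 9 rose and 1 fell, and in TDP15 9 rose and 0 fell.

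Markers of cell types moved with the groups. Of 12 microglial markers, 9 rose and 0 fell in TDP-PBS, and 9 rose and 1 fell in each immunized group. In TDP-PBS their log2 fold changes ran from -0.09 ± 0.06 (P2ry12) to 1.14 ± 0.13 (Ctss). The summed level of the list was 386 to 488 CPM in ctrl PBS mice. TDP-PBS mice had 528 to 786 CPM, TDP10+12 mice 405 to 740 CPM and TDP15 mice 439 to 1005 CPM. Of 5 markers of border macrophages 3 rose, led by Lyve1 (1.28 ± 0.24), while Mrc1 stood at 0.33 ± 0.16 and did not pass. Of 8 markers of monocytes and neutrophils 4 passed the filter and 1 rose, Plac8 (2.15 ± 0.38), with Ngp at -0.71 ± 0.66 in TDP-PBS. In the immunized groups Plac8 rose too, and neutrophil markers fell against ctrl PBS, Ngp by 2.28 on the log2 scale in TDP10+12 (edgeR adjusted p = 0.0118) and by 1.96 in TDP15 (adjusted p = 0.0149), and S100a9 by 1.73 in TDP15 (adjusted p = 0.032). Their summed level was 1.21 to 55.7 CPM in ctrl PBS mice, where the highest value far exceeded the median of 3.83. TDP-PBS mice had 1.93 to 22.8 CPM, TDP10+12 mice 2.66 to 9.5 CPM and TDP15 mice 1.66 to 11.5 CPM. Of 9 lymphocyte markers 2 were tested, Cd4 fell by 1.19 on the log2 scale (edgeR adjusted p = 0.000257) and Cd79a stood at -0.10 ± 0.21. The highest mouse had 0.397 CPM of Cd3e and 0.304 of Cd8a, and both were at 0 in some mice of every group. Of 6 neuronal markers 4 fell in each rNLS8 group, led in TDP-PBS by Snap25 (-0.68 ± 0.04), while Slc17a7 stood at -0.03 ± 0.07 there and did not pass. Of 5 astrocyte markers 1 rose, Gfap (1.64 ± 0.18), and 1 fell, Gja1 (-0.29 ± 0.08). Among 4 oligodendrocyte, 4 endothelial and 5 blood markers 0 passed in TDP-PBS. Log2 fold changes spanned -0.12 (Flt1) to 0.10 (Pecam1) for the endothelial and -0.44 (Alas2) to 0.11 (Hba-a2) for the blood markers. In TDP15 2 endothelial markers fell, Flt1 by 0.21 (edgeR adjusted p = 0.00441) and Cdh5 by 0.15 (adjusted p = 0.0413) on the log2 scale. The part of these cells in the members' rise was not tested.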

How the data were processed

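Neocortical RNA of 49 mice was sequenced as 100 bp paired-end reads, 1 library per mouse. The authors deposited raw counts per gene and mouse, aligned to GRCm38.p6 (mm10). The submitters' processing notes name HISAT2, Bowtie2 and RSEM without giving the step each served, and strand and multi-mapping settings are not given in the sources used here. The deposited table of counts was used as it stood. Groups and sexes came from the sample labels. Genes were filtered with filterByExpr by group, which left 18220 of 45252, normalized with TMM factors, and tested in 1 model of the 49 mice with edgeR's glmQLFit and glmQLFTest (edgeR 4.0.16, R 4.3.3), without covariates, two-sided, with Benjamini-Hochberg adjustment over all genes tested and a threshold of 0.05. Standard errors came from the F statistic. Logarithmic levels used a prior count of 2. Permutation tests used 100000 resamples. The fit was tested on simulated data. Alternatives were other scalings, filters, covariates, limma-voom (limma 3.58.1) and DESeq2 1.42.0. Named genes were all members, all other cluster genes in the table, for each member the 3 most alike genes, the 3 neighbours that weighed most in the local score, the 2 largest increases and the largest decrease of each pathway list, and the extremes of each cell type list, of which those of the oligodendrocyte list are not reported here. Members, lists and the comparison genes Ints7, Gas5 and Fcer1g were chosen with earlier results of these data known, so their behaviour is not independent evidence. Positions and promoters are RefSeq's for GRCm38.p6, and exon lengths are GENCODE vM21's.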

Additional observations from a re-analysis of the deposited data

Results flagged for a closer look

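In TDP10+12, mouse 47 had 7.34 CPM of Ifi207, while the next highest mouse had 4.24 CPM, a gap of 0.527 of the group's range against Dixon's critical value of 0.466 for 10 mice. In TDP-PBS, mouse 91 had 2.92 CPM of Mndal, while the next highest had 1.78 CPM, a gap of 0.484 of the range. The 9 members were examined in the 2 groups of 10 mice, 18 sets in all, and chance alone flags about 1 set in 20. Leaving out mouse 47 or mouse 91 changed no member's call. The cause was not tested.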

How the results depend on the processing

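The choice of genes kept moved the number of members called by over 1.5 times, because fewer members were tested. With at least 10 counts asked for in at least 25 of the mice, 5 members were tested and 4, 3 and 4 were called in TDP-PBS, TDP10+12 and TDP15 against ctrl PBS. In fits of only the 2 groups compared, 5 members were tested and 5, 3 and 4 were called. With the interferon score as a covariate, 0 members were called in TDP-PBS against ctrl PBS, and the log2 fold changes of Ifi203, Ifi207 and Ifi213 turned to -0.49, -0.050 and -0.11. The scores of the ctrl PBS and rNLS8 mice did not overlap, so in that fit score and genotype cannot be told apart. With Ints7 in place of the local score, an alternative chosen after seeing the data, the median share of members' variance within groups rose from 2.44% to 9.62%. With Ints7 as a covariate, also chosen after seeing the data, no member's call changed. As covariates, Ints7 and the local score were centred within each group, so neither could take up a difference between groups. These fits therefore do not show whether the members' rise goes with a difference in Ints7 between groups. Leaving out each mouse in turn, chosen after seeing the data, kept the number of members called at 8 in TDP-PBS, between 7 and 8 in TDP10+12 and between 8 and 9 in TDP15. The other scalings, sex or the local score as a covariate, no filter, limma-voom, DESeq2 and a log2 fold change over 1 kept the counts within 1.5 times. No paired analysis was possible because each animal number occurs once. Depth limits the lowest members: 3 counts are 0.139 to 0.165 CPM, above most ctrl PBS levels of Ifi206, Ifi209, Ifi211 and Ifi213.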
